A study of Homo sapiens with 16 samples.

Results

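The 10 genes followed here through human kidney organoids are read as the balance between an epithelial and a mesenchymal state, and comprise the junction and adhesion genes CDH1 (E-cadherin), EPCAM and CDH2 (N-cadherin), the filament gene VIM (vimentin), and the transcription factor genes SNAI1, SNAI2, TWIST1, TWIST2, ZEB1 and ZEB2. The members were chosen by name, and all 10 were listed among the 20121 genes of set 1, the 27650 genes of set 2 and the 21093 genes of the TNF set, which are the 3 bulk tables, and in both single-cell matrices.

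The organoids were grown from UM77-2, an established human embryonic stem cell line. Set 1 held 1 bulk library and set 2 held 2 bulk libraries at each of day 21 (D21), day 25 (D25) and day 29 (D29). In the TNF set, organoids received the inflammatory cytokine TNFα at 5 ng/ml or its buffer as vehicle control (VC), with 1 library of each at 24 h and at 48 h. Single cells were taken from 1 VC and 1 TNF culture after 24 h of exposure. The bulk TNF set was collected at day 25 at both exposures and the single cells at day 24. Isolated spheroids gave the bulk RNA and whole wells gave the cells, so the cell mixtures of the 2 assays are not the same, and the libraries of a group came from 1 cell line with nothing in the labels that sets separate differentiations apart. The p-values of set 2 therefore measure the spread between these libraries, which may be technical. In the TNF set no 2 libraries share treatment and time. Its p-values rest on how alike the TNF differences were at 24 h and 48 h, with the spread moderated over all genes.

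Epithelial cells hold to each other through E-cadherin, whose tail is tied to actin by catenins, and through EPCAM. The SNAI and ZEB factors bind E-box sequences and can repress CDH1, TWIST factors act with them, and a cell that loses E-cadherin often gains N-cadherin and vimentin, a change called epithelial to mesenchymal transition. The kidney departs from that scheme in its normal state, since podocytes, the filtering cells of the glomerulus, carry vimentin and the human proximal tubule carries N-cadherin.

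Bulk libraries held 25508651 to 29408687 reads in set 1, 19073609 to 30282025 in set 2 and 49948198 to 59246286 in the TNF set. The members' fewest reads were 28, for TWIST2 in a D21 library of set 2. The single-cell libraries held 11906 VC cells with a median of 6358.5 unique molecules (UMIs) and 23160 TNF cells with a median of 2599 UMIs, and 74 barcodes were found in both. Cells fell into 14 clusters, named from marker genes as podocyte-like (clusters 2 and 6), proximal tubule-like (1), stromal-like (0), neuronal-like (3 and 5), proliferating-like (4), neural crest or glial-like (9), muscle-like (10) and gonadal or coelomic epithelium-like (12), while clusters 7, 8, 11 and 13 stayed unnamed. Of the 7 immune markers, 1 was listed in set 1 and 2 in the other bulk tables. When the TNF cells were clustered without the VC cells, 57.3% of them fell into 1 cluster with no raised marker list, so values of TNF cells are given from both clusterings where they are compared.

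The 3 members called higher from D21 to D29 in set 2 with an entry in the promoter table used here were TWIST2, ZEB1 and VIM. The 250 bases before their RefSeq start (GRCh38.p14, plus strand, 5′ to 3′) are shown because of these calls. Their timing differed, with log2 steps from D21 to D25 of 1.02 for TWIST2, 0.36 for ZEB1 and 0.08 for VIM. From D25 to D29 the steps were 0.44, 0.69 and 0.34. Capitals mark the E-box letters CAGGTG or CACCTG, the form that SNAI and ZEB factors are known to bind. The windows are chr2:238847835-238848084 for TWIST2, chr10:31318167-31318416 for the ZEB1 start nearest to the gene's annotated start, and chr10:17227991-17228240 for VIM.
TWIST2: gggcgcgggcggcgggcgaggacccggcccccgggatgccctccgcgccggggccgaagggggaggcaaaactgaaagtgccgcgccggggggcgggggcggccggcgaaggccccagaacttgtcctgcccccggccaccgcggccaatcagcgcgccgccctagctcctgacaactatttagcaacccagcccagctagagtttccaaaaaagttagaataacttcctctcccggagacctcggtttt
ZEB1: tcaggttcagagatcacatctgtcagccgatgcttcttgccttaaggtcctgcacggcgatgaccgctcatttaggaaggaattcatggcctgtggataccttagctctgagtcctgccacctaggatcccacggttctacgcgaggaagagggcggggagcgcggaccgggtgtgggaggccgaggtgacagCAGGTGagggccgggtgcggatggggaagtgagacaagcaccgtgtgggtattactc
VIM: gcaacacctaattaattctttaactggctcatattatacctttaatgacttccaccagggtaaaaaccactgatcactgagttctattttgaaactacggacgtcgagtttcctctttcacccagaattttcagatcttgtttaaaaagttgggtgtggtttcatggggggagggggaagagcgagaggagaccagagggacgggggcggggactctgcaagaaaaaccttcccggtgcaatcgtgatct
The printed ZEB1 window held 1 such E-box, beginning 57 bases before the start, and the TWIST2 and VIM windows held none. Over 35093 windows of 250 bases, 17.49% held at least 1 of these letters on either strand. An NF-kB motif was in none of the 3 printed windows and in 6.87% of all windows. ZEB1 has 7 start sites in the table, and of the windows not printed the second held 1 NF-kB motif and the third 2 E-boxes. CDH2 and ZEB2 also had an entry, with neither motif, and CDH1, EPCAM, SNAI1, SNAI2 and TWIST1 had none.

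Relative to exon length, VIM was by far the most abundant member. At D29 of set 2 its level was 314 and 339 CPM (reads scaled to library size, as in the deposited values) per kilobase of exon in the 2 libraries. EPCAM followed at 30.1 and 28.7, and CDH2 at 25.8 and 26.3, so these genes did not overlap. SNAI2 (8.83 and 9.73 CPM per kilobase) overlapped with ZEB2 (9.49 and 8.03), and CDH1 (5.34 and 6.93) with ZEB1 (5.66 and 7.14). TWIST1 (2.75 and 2.97) stood above TWIST2 (2.17 and 2.63), which overlapped with SNAI1 (2.54 and 2.12). The annotated ZEB2 exons sum to 26151 bases, which lowers its value per kilobase.

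The question put to the culture series was how the transcript levels changed between D21 and D29. Over that time 3 of the 6 regulator genes and VIM rose in set 2, and neither CDH1 nor EPCAM was called lower. TWIST2, ZEB1, SNAI2 and VIM were called higher by limma at a Benjamini-Hochberg adjusted p under 0.05 over all 27650 genes, and no member was called lower. Thus 4 of 10 members were called, against 18.4% of all genes in this comparison, with 10.0% of all genes called higher and 8.33% lower. The median log2 fold change was 0.34 over the members and -0.02 over all genes. All 10 estimates were positive, although that of CDH1 was close to 0 and turned negative when libraries were centred on their medians.

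CDH1, which makes the cadherin of epithelial junctions, gave 5.49 and 4.97 at D21, 5.46 and 5.68 at D25, and 5.06 and 5.43 at D29 on the log2(CPM + 1) scale of the deposited values. The D21 and D29 libraries overlapped. The log2 fold change was 0.02 ± 0.18 (SE) with a 95% interval from -0.41 to 0.44 and an adjusted p of 0.967 in limma, so a loss of up to 0.41 on the log2 scale stayed within the interval. Reads of CDH1 numbered 821 to 1164 in the 6 libraries.

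EPCAM, an adhesion molecule of simple epithelia, gave 6.03 and 5.86 at D21, 6.07 and 6.03 at D25, and 6.21 and 6.14 at D29. Both D29 libraries lay above both D21 libraries, as did 27.1% of all genes. The log2 fold change of 0.24 ± 0.08 (SE) did not pass in limma (adjusted p = 0.0759), but passed with edgeR (adjusted p = 0.0404). For CDH1 the log2 fold change from D25 to D29 was -0.32 ± 0.18 (SE) and did not pass (adjusted p = 0.419 in limma).

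CDH2 gave 7.55 and 7.65 at D21, 7.57 and 7.51 at D25, and 7.80 and 7.83 at D29. The step from D21 to D29 was small, at 0.21 ± 0.07 (SE, log2), and did not pass (adjusted p = 0.0712 in limma). For VIM the values were 10.22 and 10.38 at D21, 10.37 and 10.39 at D25, and 10.67 and 10.78 at D29. VIM was higher by 0.42 ± 0.11 (SE, log2; 1.34-fold) from D21 to D29, with an adjusted p of 0.0366 in limma. This call was lost on median centring (adjusted p = 0.0644) and without D21 replicate 1, D21 replicate 2, either D25 library or D29 replicate 2, with adjusted p from 0.0808 to 0.246.

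Among the regulators, TWIST2 changed by the largest amount of the 10 members. It gave 1.29 and 1.02 at D21, 2.23 and 2.12 at D25, and 2.50 and 2.73 at D29, which rests on 28 to 155 reads. TWIST2 rose 2.74-fold from D21 to D29 (log2 fold change 1.45 ± 0.17 SE, adjusted p = 0.00112), and the rise from D21 to D25 was called as well (1.02 ± 0.17 SE, adjusted p = 0.0174). The D25 call was lost without any 1 of the 4 libraries of D21 and D25 (adjusted p from 0.0580 to 0.160).

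SNAI2 gave 4.44 and 4.20 at D21, 5.01 and 4.87 at D25, and 4.91 and 5.04 at D29. SNAI2 thus stepped up before D25 and stayed there, by 0.61 ± 0.11 (SE, log2) from D21 to D25 (adjusted p = 0.0194) and by 0.65 ± 0.11 from D21 to D29 (adjusted p = 0.00498). Its D25 call was lost without D21 replicate 2, D25 replicate 1 or D25 replicate 2 (adjusted p from 0.0907 to 0.165). ZEB1 gave 4.76 in both D21 libraries, 5.03 and 5.20 at D25, and 5.64 and 5.97 at D29. ZEB1 rose 2.07-fold from D21 to D29 (log2 fold change 1.05 ± 0.12 SE, adjusted p = 0.000802), and its step from D25 to D29 was called (0.69 ± 0.12 SE, adjusted p = 0.0329). That step lost its call without either D21 library, either D25 library or D29 replicate 2 (adjusted p from 0.0815 to 0.220).

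The other regulators did not pass in limma. TWIST1 was low at D25 (2.10 and 1.73) and higher at D29 (2.70 and 2.80) than at D21 (2.24 and 2.15), and its estimates were 0.56 ± 0.17 (SE, log2) from D21 to D29 and 0.84 ± 0.17 from D25 to D29 (adjusted p = 0.0640 and 0.0582). The change from D21 passed under edgeR (adjusted p = 0.0203) and in limma with a mean of at least 1 CPM (adjusted p = 0.0308), and the step from D25 under edgeR (adjusted p = 0.0123) and DESeq2 (adjusted p = 0.00620). ZEB2 gave 7.60 and 7.56 at D21, 7.85 and 7.86 at D25, and 7.96 and 7.72 at D29, and its estimate of 0.26 ± 0.09 (SE, log2) had an adjusted p of 0.0811 in limma, 0.0443 in edgeR and 0.0352 in DESeq2. SNAI1 stayed between 1.93 and 2.42 in all 6 libraries, with overlap of D21 and D29.

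In the shorter steps, 2 members (TWIST2 and SNAI2) were called from D21 to D25, where 5.37% of all genes were called (3.39% higher), and 1 member (ZEB1) from D25 to D29, where 2.08% were (1.25% higher). These comparisons share libraries with the one from D21 to D29. Reads of ZEB1 and of its antisense gene ZEB1-AS1, and likewise of VIM and VIM-AS1, cannot be told apart where they overlap, since no source used here says whether counting kept the strand. The antisense genes had at most 414 and 167 reads in set 2, while ZEB1 had 565 to 1708 and VIM 25290 to 49209.

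**Figure D1:**
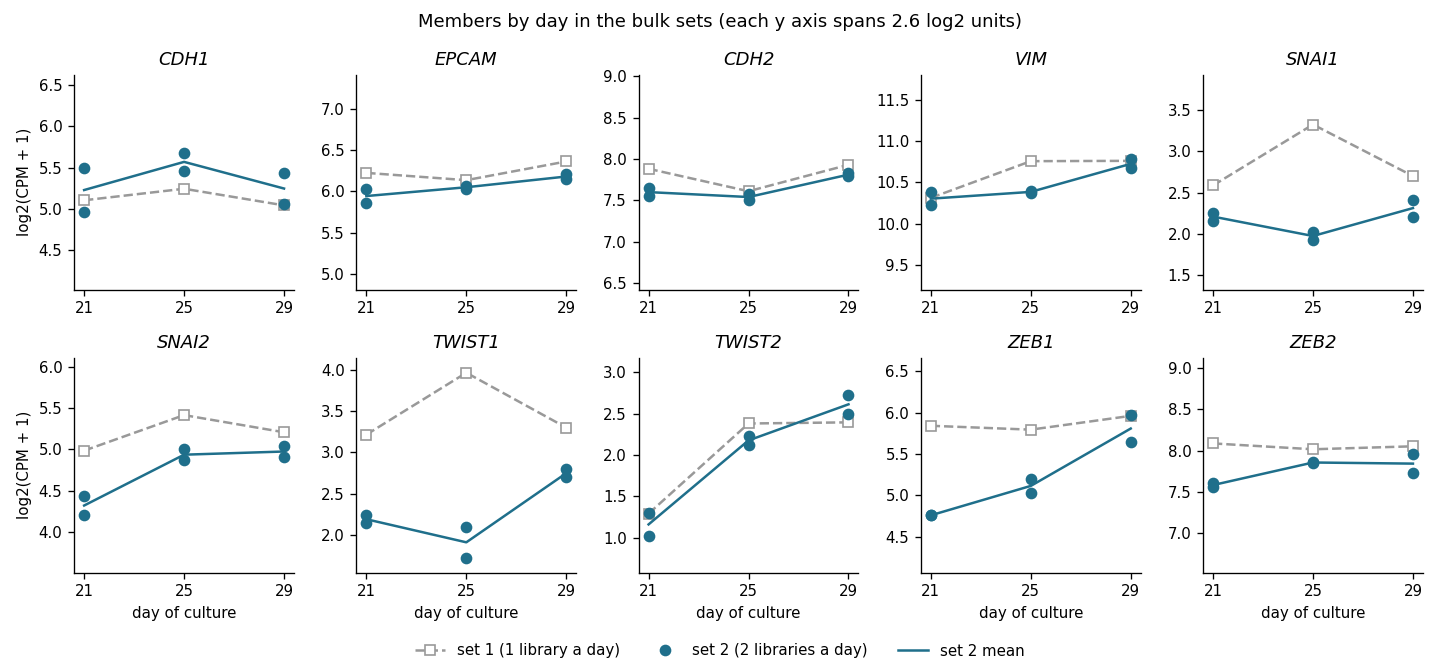
Level of each of the 10 members, in log2(CPM + 1), at days 21, 25 and 29. Open squares are the single set 1 libraries, filled circles the 2 set 2 libraries a day and lines their mean, and each y axis spans the same number of log2 units. TWIST2 went up in both sets, ZEB1 from 4.76 to 5.64 and 5.97 in set 2 but from 5.84 to 5.96 in set 1, and CDH1 overlapped between D21 and D29.

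Set 1, with 1 library a day and no test, gave a second view. TWIST2 was 1.29 at D21, 2.38 at D25 and 2.39 at D29, a difference of 1.10 between D29 and D21. VIM was 10.31, 10.75 and 10.76, a difference of 0.45 between D29 and D21, close to the 0.42 of set 2. The timing was unlike, since set 1 rose by 0.44 up to D25 and by 0.004 after it. Set 2 rose by 0.08 up to D25 and by 0.34 after it. ZEB1 was 5.84, 5.79 and 5.96, a difference of 0.12, and so did not show the step of set 2.

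SNAI2 was 0.22 higher at D29 than at D21 in set 1, CDH1 0.06 lower and EPCAM 0.14 higher. Over the same days ZEB2 differed by -0.03 and CDH2 by 0.05 in set 1, against 0.26 and 0.21 in set 2. SNAI1 (2.59, 3.33 and 2.70) and TWIST1 (3.21, 3.96 and 3.30) were highest at D25 in set 1, where set 2 had its lowest values of both. The 2 sets were normalized apart and sequenced on different instruments, so only differences within a set are set side by side.

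Lists of other genes of the pathway, chosen with earlier results of these data known, were read beside the members. Of all genes, 10.0% were called higher and 8.33% lower from D21 to D29. Of 20 further epithelial junction, keratin and polarity genes, 11 were called lower and 1 higher from D21 to D29, with a median log2 fold change of -0.37. The largest changes were in DSC2, a desmosomal cadherin (-1.16 ± 0.17 SE, adjusted p = 0.00308 in limma), KRT19, a keratin of simple epithelia (-0.99 ± 0.07 SE, adjusted p = 0.000127), and TJP1, the tight junction scaffold ZO-1 (-0.97 ± 0.24 SE, adjusted p = 0.0249). Of 7 regulators of the epithelial state, OVOL1, ESRP2 and GRHL2 were lower and none higher.

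Of 12 mesenchymal genes, 10 were called higher and none lower, with a median of 1.51. TNC (tenascin C) changed by 2.41 ± 0.13 (SE, log2; adjusted p = 6.94e-05 in limma), CTHRC1 by 2.24 ± 0.19 (adjusted p = 0.000274) and FN1, fibronectin, by 2.11 ± 0.15 (adjusted p = 0.000148). In the cadherin and catenin list, CDH11, the cadherin of mesenchyme, rose by 1.52 ± 0.07 and CDH16, the kidney cadherin of tubules, by 0.85 ± 0.07, while JUP, plakoglobin, fell by 0.67 on the log2 scale (3 higher and 1 lower of 9). Of 10 other transition factors, 3 rose, PRRX1 by the most (2.58 ± 0.23), and FOXC2 fell by 1.24. Of 10 TGF-β ligands, receptors and SMADs, 4 rose, with TGFB2 at 1.24 ± 0.11 and TGFB3 at 0.86 ± 0.09, and TGFBR2 fell by 0.92. Among the nearest relatives of the adhesion members, desmosomal and tight junction transcripts were thus called lower in these libraries while CDH1 and EPCAM were not.

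Markers of several cell types moved over the same days, and in bulk RNA fewer cells of a type and less RNA per cell cannot be told apart. Of 9 stromal markers, 7 were called higher from D21 to D29 and none lower, and their summed level went from 4058 and 4552 CPM at D21 to 11558 and 13650 CPM at D29. All 10 neuronal markers were higher in set 2, with sums of 561 and 595 CPM against 1010 and 1496 CPM. Podocyte markers were lower in 7 of 10, with sums of 11938 and 12553 CPM at D21, and 8169 CPM in D29 replicate 1 but 3884 CPM in D29 replicate 2.

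Proximal tubule markers were lower in 7 of 10, from 1004 and 1241 CPM to 472 and 602 CPM. Of 8 muscle markers fitted, 6 were higher. None of the stromal, neuronal, podocyte, proximal tubule and muscle markers listed in set 2 was at 0 reads in any of its libraries. Set 1, with 1 library a day, did not show the neuronal rise, with sums of 1529 CPM at D21, 1622 CPM at D25 and 1306 CPM at D29. Its stromal sums were 6571 CPM at D21 and 14820 CPM at D29, and its podocyte sums 7763 and 3063 CPM. The part of these mixtures in the changes of TWIST2, SNAI2, ZEB1 and VIM was not tested.

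The single-cell library of the VC culture placed each member in its cells. As CPM of the UMIs summed over a cluster, with exact Poisson 95% intervals (for the counting error alone), the SNAI2, TWIST1 and TWIST2 transcripts were highest in stromal-like or proliferating-like cells, SNAI1 in muscle-like cells, ZEB1 in neuronal-like cells and ZEB2 in neural crest or glial-like cells. EPCAM led in proximal tubule-like cells and CDH1 in neural crest or glial-like and proximal tubule-like cells. There was 1 library per condition, so these levels carry no test, and levels of different genes are not compared since 3′ counts do not follow gene length.

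CDH1 was found at 26.4 CPM (23.3 to 29.9) in the neural crest or glial-like cluster, from 250 UMIs, and at 19.4 CPM (17.5 to 21.5) in the proximal tubule-like cluster, from 357 UMIs. CDH1 was at 1.49 CPM or less in the podocyte-like, stromal-like, neuronal-like, proliferating-like and gonadal or coelomic epithelium-like clusters. It had 0 UMIs in muscle-like cells, where a floor of 3 UMIs would be 2.70 CPM. The neural crest or glial-like cells had 13.6 CPM of EPCAM, near that of other clusters without epithelial markers, and 27.2 CPM of summed proximal tubule markers against 600.0 CPM in the proximal tubule-like cluster. Tubule markers and EPCAM were thus low in the cluster where CDH1 was highest.

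EPCAM was at 397 CPM (388 to 406) in proximal tubule-like cells, at 106 CPM in podocyte-like cluster 6 and at 34.8 CPM in podocyte-like cluster 2. Cluster 6 also raised nephron progenitor markers. The stromal-like cells had 8.16 CPM of EPCAM. When cells were thinned to 1500 UMIs, 43.1% of proximal tubule-like cells had an EPCAM UMI, against 0.809% of stromal-like cells, which should lack it (37 and 132 shallower cells left out). Without thinning the shares were 85.2% and 3.65%, at median depths of 8990.5 and 4853 UMIs.

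CDH2 had the flattest distribution of the adhesion genes. It was at 281 CPM in unnamed cluster 11, whose leading genes were MSX1 and DKK1, at 167 and 155 CPM in neuronal-like clusters, at 147 and 93.5 CPM in podocyte-like clusters, at 131 CPM in stromal-like cells and at 99.5 CPM in proximal tubule-like cells. Its lowest value was 46.9 CPM in muscle-like cells.

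VIM was present in every cluster, from 886 CPM in neuronal-like cluster 5 to 4262 CPM in unnamed cluster 11. The podocyte-like clusters reached 3478 and 3283 CPM, above the 3138 CPM of stromal-like cells, and proximal tubule-like cells had 1263 CPM. In proximal tubule-like cells thinned to 1500 UMIs, VIM was found in 71.6% of those with an EPCAM UMI and in 72.3% of those without one.

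The regulators split by lineage. SNAI2 was at 96.3 CPM in stromal-like, 61.4 CPM in proliferating-like and 54.3 CPM in gonadal or coelomic epithelium-like cells, and at 5.93 CPM in proximal tubule-like cells. TWIST1 had 88.0, 88.8 and 59.7 CPM in the same 3 classes, and 63.0 CPM in unnamed cluster 7, which raised muscle and myogenic progenitor markers. TWIST2 was at 26.2 CPM in stromal-like cells and at 12.9 CPM or less elsewhere.

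SNAI1 was at 59.5 CPM in muscle-like cells (66 UMIs in 117 cells) and 26.2 CPM in cluster 7, against 9.85 CPM or less in the other clusters, and 28.8 CPM where VC cells were clustered alone and cluster 7 cells joined the muscle-like class. ZEB1 was at 170 and 96.1 CPM in the neuronal-like clusters, and at 86.5 CPM in muscle-like cells (96 UMIs). Unnamed clusters 7, 8 and 11 had 76.4, 67.9 and 61.3 CPM of ZEB1, and proliferating-like cells 42.3 CPM. Stromal-like cells had 26.9 CPM of ZEB1 and proximal tubule-like cells 6.26 CPM. ZEB2 was at 247 CPM in neural crest or glial-like, 150 CPM in muscle-like, 149 CPM in neuronal-like cluster 3 and 135 CPM in stromal-like cells. ZEB2 also reached 92.4 CPM in podocyte-like cluster 2, and 30.3 CPM in proximal tubule-like cells. Proximal tubule-like cells had the lowest ZEB1, SNAI2, TWIST1 and TWIST2 values of the 14 clusters. For 2 of these genes other clusters came close. TWIST1 was 5.77 CPM against 6.14 CPM in cluster 9, and 6.22 and 7.49 CPM in podocyte-like clusters 6 and 2. TWIST2 was 1.25 CPM against 1.48 CPM in cluster 9, from 23 and 14 UMIs.

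**Figure D2:**
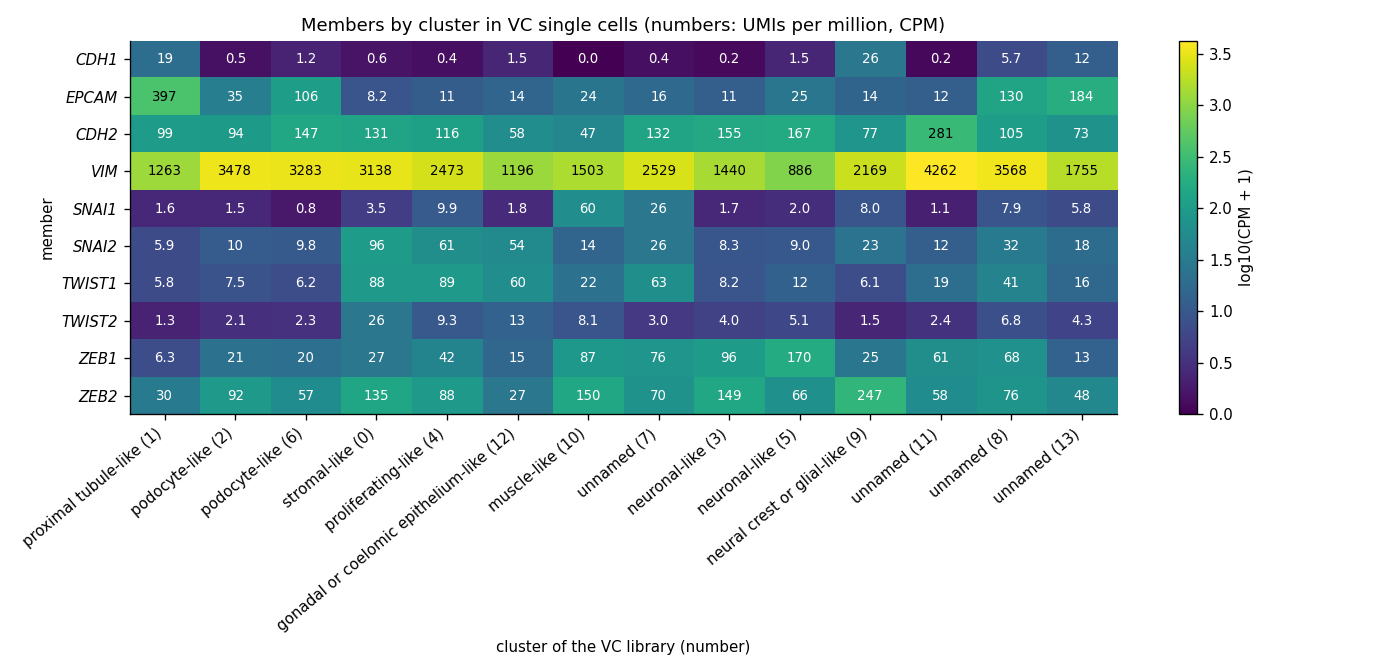
Level of the 10 members (rows) in the 14 clusters of the VC library (columns), printed as CPM and coloured by log10(CPM + 1). CDH1 stands out in the proximal tubule-like (19) and neural crest or glial-like (26) columns, ZEB1 in neuronal-like cluster 5 (170), and VIM is high in every column.

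Over the 14 VC clusters, SNAI2 and TWIST1 followed each other (Pearson r = 0.89 of log2(CPM + 10)), as did SNAI2 and TWIST2 (r = 0.83), whereas CDH1 and EPCAM had r = 0.53 and ZEB1 and ZEB2 r = 0.37. The clusters share 1 library, and these are descriptions. Among 10368 genes with at least 20 CPM in a cluster, those most like CDH1 were MITF (r = 0.97), SPP1 (0.96), APOA1 (0.90), NUDT4 (0.89) and CRYL1 (0.88). Those most like CDH2 were SLC35B1, CNOT6, GOLM1, EML1 and ZNF678 (r from 0.83 to 0.88), like VIM SOCS3, CALU, SEPTIN2, ARHGAP5 and HSPA5 (0.84 to 0.88), and like ZEB2 ITGA4, SNX18, WARS, FIGN and FAM53C (0.78 to 0.84).

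The second question was how the organoids respond to TNFα. In the bulk TNF set VIM was the member that changed. VIM was 10.53 (VC) and 11.10 (TNF) at 24 h, and 10.67 (VC) and 11.04 (TNF) at 48 h. Both TNF libraries were above both VC libraries, as for 18.8% of all genes, by 0.57 at 24 h and 0.37 at 48 h. With the 2 times as replicates, VIM rose 1.39-fold (log2 fold change 0.47 ± 0.07 SE, adjusted p = 0.000134 in limma with time as a term). Thus 1 of 10 members was called, against 19.3% of all 21093 genes (8.42% higher), and the median over the members was 0.02 against -0.03 over all genes.

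CDH1 was 5.61 (VC) and 5.22 (TNF) at 24 h, and 5.55 (VC) and 5.49 (TNF) at 48 h. Both TNF libraries were below both VC libraries, as for 27.4% of all genes, and the difference was larger at 24 h. The estimate of -0.23 ± 0.08 (SE, log2) had an adjusted p of 0.0628 in limma and passed under 3 alternatives, with adjusted p of 0.0443, 0.0461 and 0.0180. EPCAM was between 7.47 and 7.55 in the 4 libraries, with an interval of the difference from -0.08 to 0.17, and CDH2 between 7.49 and 7.54, with an interval from -0.14 to 0.13.

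No regulator passed. SNAI2 was 4.90 and 5.05 in VC and 4.71 and 4.85 in TNF libraries (-0.20 ± 0.08 SE, adjusted p = 0.0985 in limma), with the same difference of -0.20 at each time. SNAI1 was 1.93 and 2.15 in VC and 2.15 and 2.48 in TNF libraries (0.27 ± 0.12 SE, adjusted p = 0.141). TWIST2 rested on 42 to 83 reads and had an interval from -0.04 to 0.47, while the intervals of TWIST1 (-0.41 to 0.05), ZEB1 (-0.13 to 0.26) and ZEB2 (-0.24 to 0.06) also spanned 0.

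**Figure D3:**
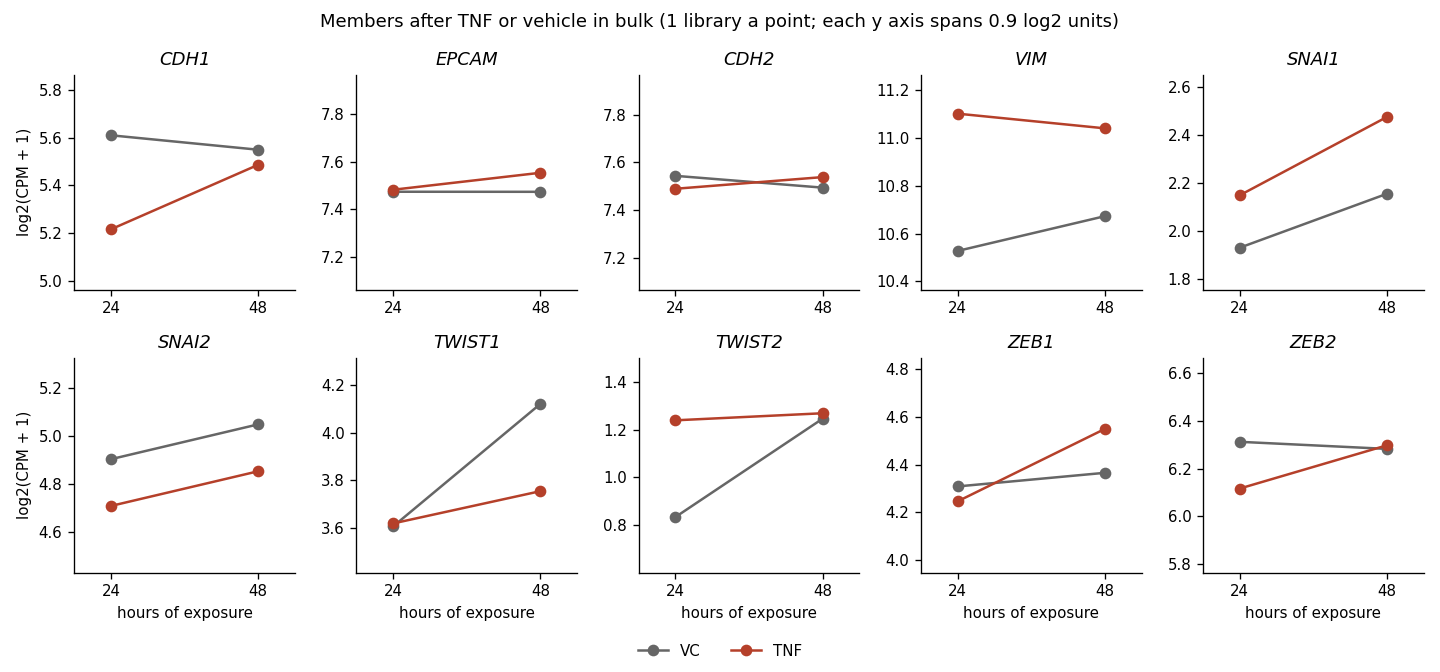
Level of each member, in log2(CPM + 1), after 24 h and 48 h of TNFα (red) or vehicle (grey), with 1 library a point and y axes of equal span. VIM was higher with TNF at both times, at 11.10 and 11.04 against 10.53 and 10.67, SNAI2 lower at both, and the lines of CDH2, TWIST1, ZEB1 and ZEB2 cross.

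**Figure D4:**
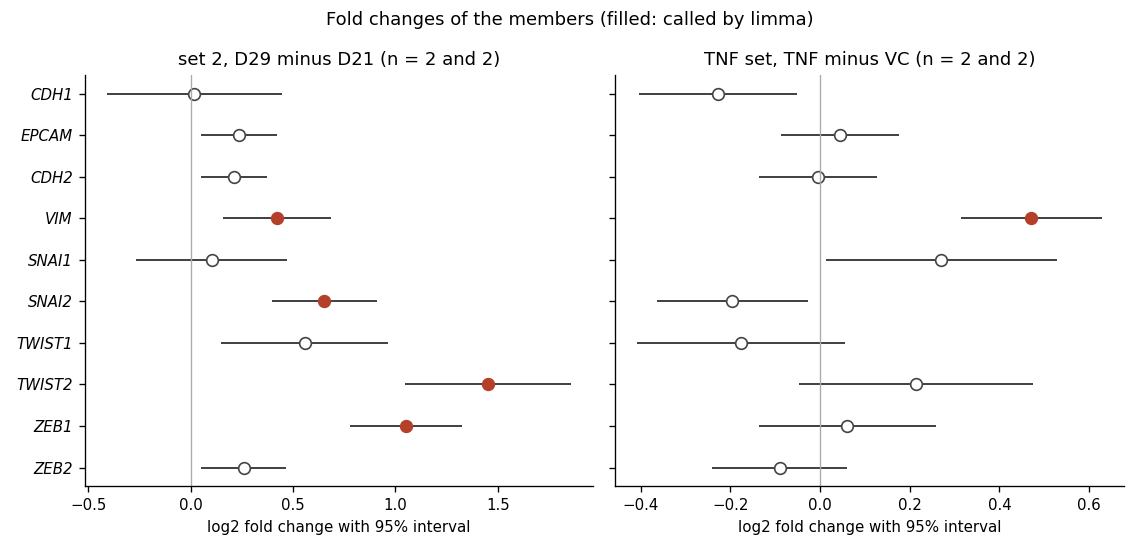
Log2 fold changes with 95% intervals of the 10 members from D21 to D29 (left) and for TNF against VC (right), filled where called. TWIST2 (1.45), ZEB1 (1.05), SNAI2 (0.65) and VIM (0.42) are filled on the left and VIM (0.47) on the right.

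Partners of the epithelial members moved with TNFα in both directions. Over all 21093 genes, 1776 were called higher and 2285 lower. Of 20 junction, keratin and polarity genes, 9 were called higher and 4 lower, among them DSG2, a desmosomal cadherin (0.75 ± 0.06 SE, adjusted p = 5.44e-08 in limma), CGN, cingulin of tight junctions (-0.57 ± 0.08 SE, adjusted p = 5e-05), and DSC2 (0.49 ± 0.06 SE, adjusted p = 1.06e-05). In the mesenchymal list 7 of 12 were higher and 2 lower, with S100A4 at -0.95 ± 0.10, TNC at 0.89 ± 0.10 and CTHRC1 at 0.68 ± 0.13.

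Of the cadherin and catenin list, CDH6, a cadherin of the nephron, was higher (0.61 ± 0.07) and JUP lower (-0.22 ± 0.06). Of the other transition factors 3 rose, with SOX9 at 1.03 ± 0.11 and PRRX1 at 0.77 ± 0.12, and 2 fell, with FOXC1 at -0.38 ± 0.06. Of the TGF-β list 2 rose and 2 fell, with TGFBR3 at -1.27 ± 0.07, TGFB2 at 0.37 ± 0.09 and TGFB1 at 0.32 ± 0.07. ELF3 was higher and ESRP2 lower among 6 listed epithelial state regulators.

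Beside these changes, all 10 podocyte and all 10 proximal tubule markers were called lower with TNFα, as were 2285 of all 21093 genes. Podocyte sums were 7589 and 7055 CPM in VC and 4689 and 3513 CPM in TNF libraries. Proximal tubule sums were 1142 and 1147 CPM in VC and 514 and 575 CPM in TNF libraries. Stromal sums were 6058 and 7450 CPM in VC and 7345 and 7637 CPM in TNF libraries, with 3 of 9 markers higher and 3 lower. Their part in the VIM result was not tested.

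The single cells showed where VIM differed at 24 h. The 10 leading genes of the stromal-like cluster 0 held 1 mural and 0 stromal markers, although 7 stromal markers were raised in it, so the libraries are compared by cluster number. The same was so in the stromal-like cluster of the TNF cells clustered alone, whose values are given beside those of the VC cells without comparing the classes. In podocyte-like cluster 2 VIM was 3478 CPM in VC and 4821 CPM in TNF cells (ratio 1.39, exact 95% interval 1.37 to 1.41), and in podocyte-like cluster 6 it was 3283 against 4162 CPM. Stromal-like cluster 0 went the other way, from 3138 CPM to 2338 CPM (ratio 0.745, 0.735 to 0.755). Proximal tubule-like cells had 1263 CPM of VIM in VC and 1733 CPM in TNF. The largest ratio was 2.25, in neuronal-like cluster 5 (886 CPM in VC and 1996 CPM in TNF). It was 1.41 in neuronal-like cluster 3, 1.41 in muscle-like cluster 10, 1.68 in cluster 13, 1.24 in cluster 12 and 1.06 in cluster 9. VIM was lower in TNF in proliferating-like cluster 4 (ratio 0.876) and in unnamed clusters 7 (0.828), 8 (0.754) and 11 (0.850). Over all cells VIM was 2284 CPM in VC and 2661 CPM in TNF.

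With each library clustered alone, VIM was 3424 CPM in VC and 5681 CPM in TNF podocyte-like cells. It was 3128 and 2283 CPM in stromal-like cells, and 1374 and 1582 CPM in proximal tubule-like cells. The podocyte-like and proximal tubule-like values are in the order of the joint clusters. Over the unnamed TNF clusters together, VIM was 2580 CPM.

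CDH1 in proximal tubule-like cells was 19.4 CPM in VC and 11.1 CPM in TNF (ratio 0.572, exact 95% interval 0.474 to 0.689), and it was 17.9 and 10.2 CPM with the libraries clustered alone. EPCAM was 397 CPM against 281 CPM in the joint clusters, but 369 against 342 CPM when clustered alone. EPCAM also differed in cells that should lack it, with 8.16 CPM in VC and 20.3 CPM in TNF in stromal-like cluster 0 and 11.4 and 49.3 CPM in neuronal-like cluster 3. In the stromal-like clusters made alone it was 7.96 CPM in VC and 9.12 CPM in TNF. Thinned to 1500 UMIs, 0.809% of VC and 3.82% of TNF cells of cluster 0 had an EPCAM UMI, against 43.1% and 26.2% of proximal tubule-like cluster 1. Unthinned, these shares were 3.65% and 6.79% in cluster 0 (median depths 4853 and 2768 UMIs) and 85.2% and 45.5% in cluster 1 (8990.5 and 2570 UMIs). The part of this background in the TNF values was not tested. In cluster 0 SNAI2 was 96.3 against 58.1 CPM, TWIST1 88.0 against 46.7 CPM and ZEB1 26.9 against 18.9 CPM. The stromal-like clusters made alone had 95.9 CPM (VC) and 65.1 CPM (TNF) of SNAI2, 87.6 and 45.9 CPM of TWIST1, and 27.6 and 13.7 CPM of ZEB1. These are 1 VC and 1 TNF library, and no difference could be tested.

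The marker sums moved along with these values. In the joint proximal tubule-like cluster the proximal tubule markers summed to 600.0 CPM in VC and 327 CPM in TNF, and stromal markers to 279 CPM and 828 CPM, while SNAI2 was 5.93 and 14.7 CPM. Clustered alone, stromal markers in proximal tubule-like cells summed to 389 CPM in VC and 385 CPM in TNF, and SNAI2 was 7.26 and 6.34 CPM. Cluster 0 held 5470 CPM of stromal markers in VC and 3670 CPM in TNF (alone 5453 and 4068 CPM), and podocyte-like cluster 2 held 10057 CPM of podocyte markers in VC and 5257 CPM in TNF (alone 8531 and 6341 CPM). Neuronal-like cluster 5, with the largest VIM ratio, held 6352 CPM of neuronal markers in VC and 2362 CPM in TNF. Its stromal markers summed to 428 CPM in VC and 1268 CPM in TNF. The part of these marker sums in the VIM, CDH1 and SNAI2 values was not tested.

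**Figure D5:**
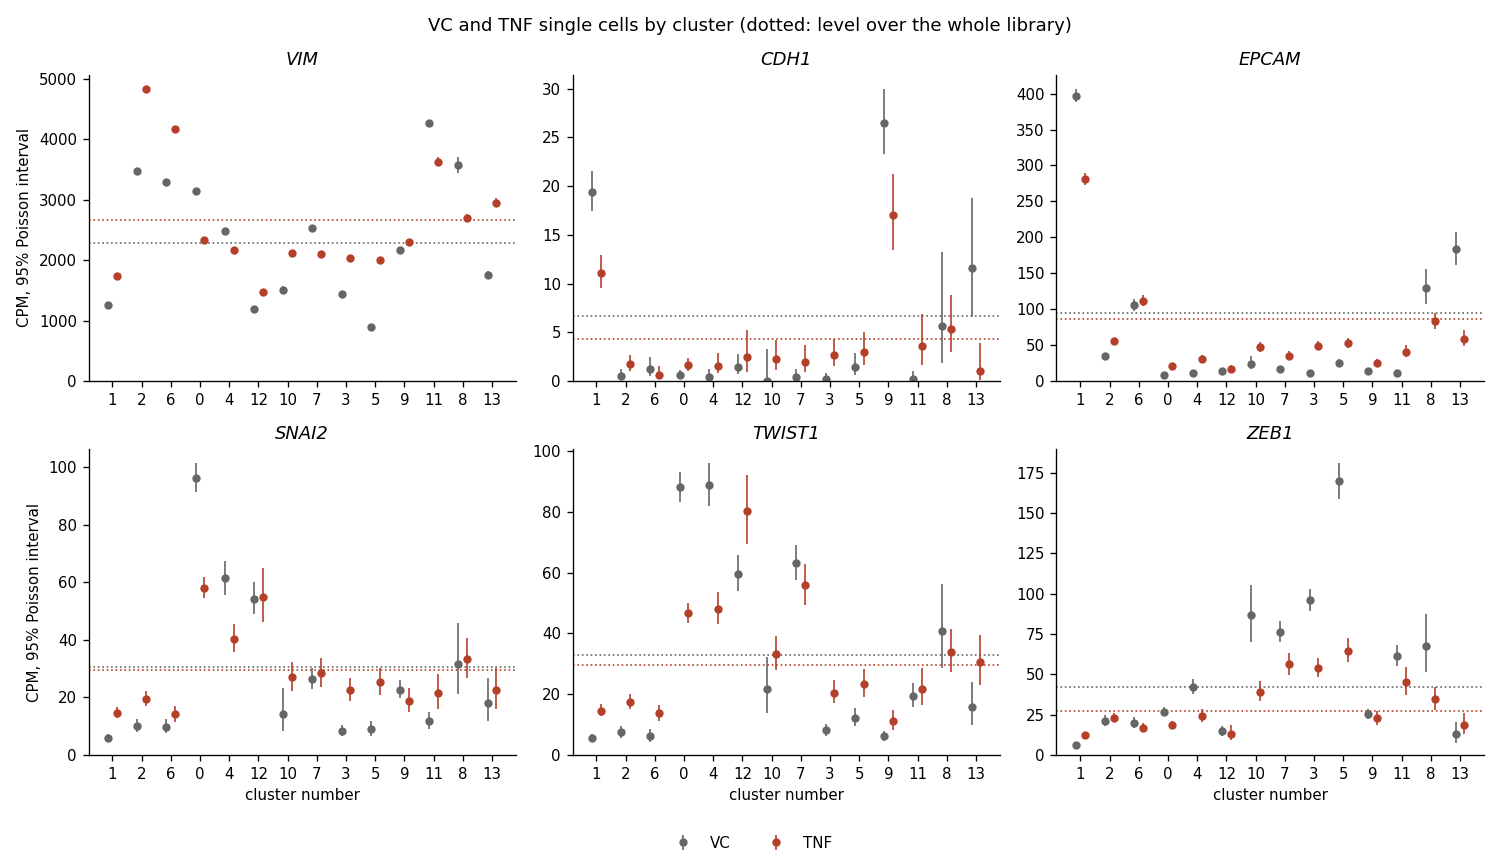
CPM of VIM, CDH1, EPCAM, SNAI2, TWIST1 and ZEB1 in the 14 joint clusters of the VC (grey) and TNF (red) single cells, with exact Poisson 95% intervals, and dotted lines at the level over each whole library. VIM in podocyte-like clusters 2 and 6 is higher in TNF (4821 and 4162 CPM), and in stromal-like cluster 0 lower (2338 against 3138 CPM). Its largest ratio of TNF over VC is in neuronal-like cluster 5 (1996 against 886 CPM). Neuronal markers of that cluster summed to 2362 CPM in TNF against 6352 CPM in VC.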

How the data were processed

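Bulk RNA of isolated spheroids and single cells (10x 3′) of whole wells were measured. Per the labels and the study's methods, the authors aligned bulk reads with STAR 2.7.8a to GRCh38, counted them with HTSeq and deposited voom-transformed log2 values, log2(CPM + 1) with 0.5 added to each count. The authors deposited single-cell UMI counts as filtered matrices whose header names Cell Ranger 6.0.1.

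Differences between days were tested with limma 3.58.1 (trend) on the deposited log2 values of all genes, 1 mean per day over the 6 set 2 libraries, and TNF against VC with time as a term, two-sided, Benjamini-Hochberg over all genes, called under 0.05. The pair of libraries in each arm limits the precision. Every deposited value gave a read number within 2.22e-08 of a whole one, and edgeR 4.0.16 and DESeq2 1.42.0 were run on these reads as alternatives. Set 1 and single cells had 1 library a group and no test.

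Cells with over 500 genes were kept, aligned with a Harmony-type correction on 30 components, without the members and the context genes, and clustered (Leiden, resolution 0.25). Scrublet's automatic threshold marked 0 VC and 1 TNF cells, so the top scores at 0.8% per 1000 cells (9.27% and 18.5%) were taken as doublets in an alternative, and kept otherwise. A D25 control library was not analysed here. The members and all gene and marker lists were chosen with earlier results of these data known. The named genes of a list are at most the 3 called genes with the largest change. Scripts were tested on simulated data. Replicate numbers were left out of the main fit of set 2. Same-numbered libraries deviated together weakly, with r of 0.14, 0.08 and 0.27 over 18641 genes between pairs of days. With the number as a term, calls over all genes from D21 to D29 went from 5081 to 6056, so partial pairing is possible.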

Additional observations from a re-analysis of the deposited data

Results flagged for a closer look

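Differences between TNF and VC of opposite sign at 24 h and at 48 h were seen for 4 members, each with 1 library per arm and time, so the difference between times was not tested. On the log2(CPM + 1) scale CDH2 differed by -0.0541 at 24 h and 0.0440 at 48 h. TWIST1 differed by 0.0124 at 24 h and -0.365 at 48 h. ZEB1 differed by -0.0625 at 24 h and 0.184 at 48 h, and ZEB2 by -0.196 at 24 h and 0.0151 at 48 h.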

How the results depend on the processing

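Of 420 fold changes of members under an alternative, 369 kept their direction and their side of the threshold, 23 newly passed it, 18 no longer did and 10 changed sign. The calls of TWIST2, ZEB1 and SNAI2 from D21 to D29 and of VIM under TNFα passed under every alternative that was run. From D21 to D29, 4 members were called, 7 with edgeR, 7 with the replicate block (the labels' number as a term) and 3 to 4 with 1 library left out. From D21 to D25, 2 were called, and 0 to 4 with 1 library left out. From D25 to D29, 1 was called, 2 with edgeR, without the added 1, with a mean of at least 1 CPM, on median centring and with the replicate block, 3 with DESeq2, and 0 to 1 with 1 library left out. For TNF against VC, 1 was called and 2 (VIM and CDH1) without the added 1, with a mean of at least 1 CPM and on median centring. The block added CDH2, ZEB2 and EPCAM from D21 to D29 and TWIST1 from D25 to D29, and changed no other call. Over all genes, calls from D25 to D29 went from 574 to 1336 with edgeR, 1288 with DESeq2, 1128 with the mean of at least 1 CPM, 1127 on median centring and 1118 with the block, and TNF calls from 4061 to 2184 with DESeq2 and 1310 without the time term.

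Sign changes were in values near 0. CDH1 from D21 to D29 was -0.018 on median centring and -0.24 to 0.28 with 1 library left out. ZEB2 from D25 to D29 was 0.0017 with edgeR, 0.0092 with DESeq2 and -0.13 to 0.11 with 1 library left out, and SNAI2 -0.031 to 0.11. CDH2 under TNFα was 0.032 with edgeR and 0.030 with DESeq2. The cause was not tested.

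With each library clustered alone, EPCAM in VC proximal tubule-like cells was 369 CPM, SNAI1 in VC muscle-like cells 28.8 CPM and VIM in VC podocyte-like cells 3424 CPM, and TNF over VC ratios were 1.66 for VIM in podocyte-like, 0.730 in stromal-like and 1.15 in proximal tubule-like cells, 0.928 for EPCAM in proximal tubule-like cells, and 0.679 for SNAI2 and 0.497 for ZEB1 in stromal-like cells. Without doublets EPCAM was 408 CPM, ZEB1 in VC neuronal-like cells 136 CPM, ZEB2 in VC neural crest or glial-like cells 259 CPM and the VIM ratio in podocyte-like cells 1.40. The 8 recomputed ratios (VIM in 3 classes, CDH1 and EPCAM in proximal tubule-like, SNAI2, TWIST1 and ZEB1 in stromal-like cells) kept their direction without doublets. Those of podocyte-like and proximal tubule-like cells also kept it with libraries clustered alone. SNAI2 in proximal tubule-like cells was higher in TNF in the joint clusters (14.7 against 5.93 CPM) and lower with libraries clustered alone (6.34 against 7.26 CPM). Low reads limit TWIST2 in bulk and CDH1 in single cells outside of 2 clusters, where it had at most 16 UMIs in VC.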

Other observations

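The CDH1 level of the neural crest or glial-like VC cells was also read by the UMIs of the pigment cell genes DCT, PMEL and MITF in a cell, a split chosen after the CDH1 level was seen. CDH1 was at 36.0 CPM (exact Poisson 95% interval 30.6 to 42.1) in the 414 cells with 0 such UMIs, 22.4 CPM (16.2 to 30.2) in the 167 cells with 1, and 15.4 CPM (11.3 to 20.4) in the 250 cells with 2 or more. A count of 0 UMIs does not show that a cell lacks these transcripts, and the source of the CDH1 UMIs was not tested. In the TNF library CDH1 was at 18.7 CPM (14.0 to 24.4) in 645 cells with 0 such UMIs, 21.3 CPM (11.9 to 35.1) in 138 cells with 1 and 9.69 CPM (4.65 to 17.8) in 132 cells with 2 or more, with median depths of 2806, 3204.5 and 7081.5 UMIs.

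Among unnamed clusters of the VC library, cluster 13 had 11.6 CPM of CDH1 from 16 UMIs and 184 CPM of EPCAM, and cluster 8, whose median depth was 989 UMIs, had 130 CPM of EPCAM and 3568 CPM of VIM.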
